A study of Mus musculus with 10 samples.

Results

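The genes described here encode the p38 and JNK MAP kinases with their nearest partners in the cascade. They were chosen by gene symbol: the p38 kinases Mapk11, Mapk12, Mapk13 and Mapk14, the JNK kinases Mapk8 and Mapk9, the p38 activators Map2k3 and Map2k6 (MKK3 and MKK6), and the p38-activated kinases Mapkapk2 and Mapkapk3 (MK2 and MK3). All 10 had a single row among the 20206 genes of the table, and all 10 passed the filter of a mean of at least 10 that left 14354 genes for testing. RNA was sequenced from 10 mouse embryonic stem cell (ESC) lines to ask whether maternal diet before implantation leaves a trace in the cells. LPD lines 1, 4, 6, 20 and 40 came from blastocysts of mothers fed low protein diet (LPD, 9% casein), and NPD lines 8, 15, 21, 36 and 51 from blastocysts of mothers on normal protein diet (NPD, 18% casein). All 10 lines were wild type C57BL/6 and labelled male. Each diet was fed from the morning after mating to embryonic day 3.5 (E3.5), so the cells were not exposed to it in culture. The lines came from different mothers and were started on fibroblast feeder layers, and RNA was taken from cells in fibroblast-free medium.

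MAP kinase cascades pass a stress signal from a MAP3 kinase to a MAP2 kinase and on to a MAP kinase, each step phosphorylating the next in its activation loop. MKK3 and MKK6 activate p38, while MKK4 and MKK7 activate JNK. Active p38 switches on MK2 and MK3, which act on proteins that bind AU-rich mRNAs, and active JNK phosphorylates transcription factors such as c-Jun. In ESCs these kinases are known for their part in stress responses, apoptosis and early differentiation. The values below are transcript levels and say nothing of phosphorylation.

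The activation loop is where the families differ most plainly, and its coding sequence is shown for the kinases at the end of each branch. Capitals mark the codons of the motif that holds the activating residues. It reads Thr-Gly-Tyr in p38, Thr-Pro-Tyr in JNK and Thr-Pro in MK2 and MK3. Each stretch lies within 1 coding exon of the GRCm38 genome and runs 5′ to 3′ in the sense of the gene, from the codons of the Asp-Phe-Gly motif onward.
Mapk14: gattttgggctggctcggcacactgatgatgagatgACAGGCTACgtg
Mapk11: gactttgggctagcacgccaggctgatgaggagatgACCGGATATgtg
Mapk12: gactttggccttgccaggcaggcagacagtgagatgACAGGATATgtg
Mapk13: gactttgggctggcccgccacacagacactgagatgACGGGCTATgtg
Mapk8: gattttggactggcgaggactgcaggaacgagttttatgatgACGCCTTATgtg
Mapk9: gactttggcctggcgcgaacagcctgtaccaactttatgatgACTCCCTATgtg
Mapkapk2: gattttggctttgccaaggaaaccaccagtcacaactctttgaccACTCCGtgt
Mapkapk3: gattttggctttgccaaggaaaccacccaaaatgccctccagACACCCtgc
The 4 p38 stretches lie in exon 7 of 12 of their genes. They are at chr17:28728363-28728410 (plus strand) for Mapk14, chr15:89145863-89145910 (minus strand) for Mapk11, chr15:89134673-89134720 (minus strand) for Mapk12 and chr17:28776308-28776355 (plus strand) for Mapk13. The JNK stretches lie in exon 6 of 12, at chr14:33393000-33393053 (minus strand) for Mapk8 and chr11:49872788-49872841 (plus strand) for Mapk9. Those of MK2 and MK3 lie in exon 5 of 10 at chr1:131057513-131057566 (minus strand) and in exon 6 of 11 at chr9:107260064-107260114 (minus strand).

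The closest relatives differed enough in sequence for reads to separate them. Over the aligned coding sequence, identity was 70.7% between Mapk14 and Mapk11 and 70.1% between Mapk12 and Mapk13. It was 75.5% between Mapk8 and Mapk9, 72.0% between Map2k3 and Map2k6, and 69.4% between Mapkapk2 and Mapkapk3. None of the 45 pairs of these genes shared a stretch of 31 bases, the default matching length of Salmon, in any annotated transcript. The p38 genes lie in 2 neighbouring pairs on the same strand, Mapk12 beside Mapk11 with a gap of 1782 bases on chromosome 15, and Mapk14 beside Mapk13 with a gap of 20890 bases on chromosome 17. Against all other genes, the largest share of 31-base stretches held in common was 2.19%, between Mapk12 and Gm15910, and Map2k3 shared 1.11% with Gm12792.

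Depth differed between the diets. A line held 20357571 to 23175444 read equivalents in NPD, and 5855210 (line 4) to 24225456 (line 20) in LPD, with a median of 12323007. The 8 pluripotency markers summed to 86135 to 107390 in LPD lines and 80367 to 106319 in NPD lines, and the lowest of them averaged 1675, so every line held the markers of ESCs. Markers of fibroblasts, the feeder cell type, summed to at most 755.6 in 4 LPD lines and to 3344 in LPD line 6, and to between 433.8 and 2190 in 4 NPD lines and 5689 in NPD line 15. Of the 10 fibroblast markers, 4 were at 0 in at least 1 line, and of the 7 tested 1 had a positive log2 fold change (median -0.88). All 7 markers of primitive endoderm had positive log2 fold changes (median 0.34), and 0 markers of either list were called. The sums of the endoderm markers overlapped, from 644.8 to 4312 in LPD lines and from 448.4 to 4941 in NPD lines. The Y-linked gene Ddx3y had 1110 to 1493 in 8 lines but 173.8 in LPD line 4 and 7.70 in NPD line 15, against their label as male, and results are therefore also given without these lines. In bulk RNA, fewer cells of a type and less RNA per cell cannot be told apart.

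Of the 10 kinase genes, only Mapkapk2 differed between the diets at an unadjusted p under 0.05. It was higher in all 5 LPD lines than in any NPD line, by 1.25-fold (95% interval 1.08 to 1.45). The other 9 genes had differences between -0.18 and 0.23 on the log2 scale, and none of them passed the test. The 1 call is 10.0% of these genes, against 5.02% of the 14354 genes tested called in either direction. Of all genes, 2.84% were called higher and 2.18% lower in LPD, where limma was fitted to log2(value + 1). The study had reported Mapkapk2 as higher in LPD lines by qRT-PCR and as not significant in RNA sequencing. The genes were chosen with earlier results known, so this share is no independent support for a difference. No kinase gene passed an adjusted p of 0.1 (limma, Benjamini-Hochberg), nor did any gene of the table (0.0%), with 721 genes at an unadjusted p under 0.05. The median log2 fold change of the 10 genes was -0.04, with 4 positive and 6 negative, beside 0.00 over all genes, and the signs of Mapk11 and Mapk13 turned under another scaling of the lines.

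**Figure D1:**
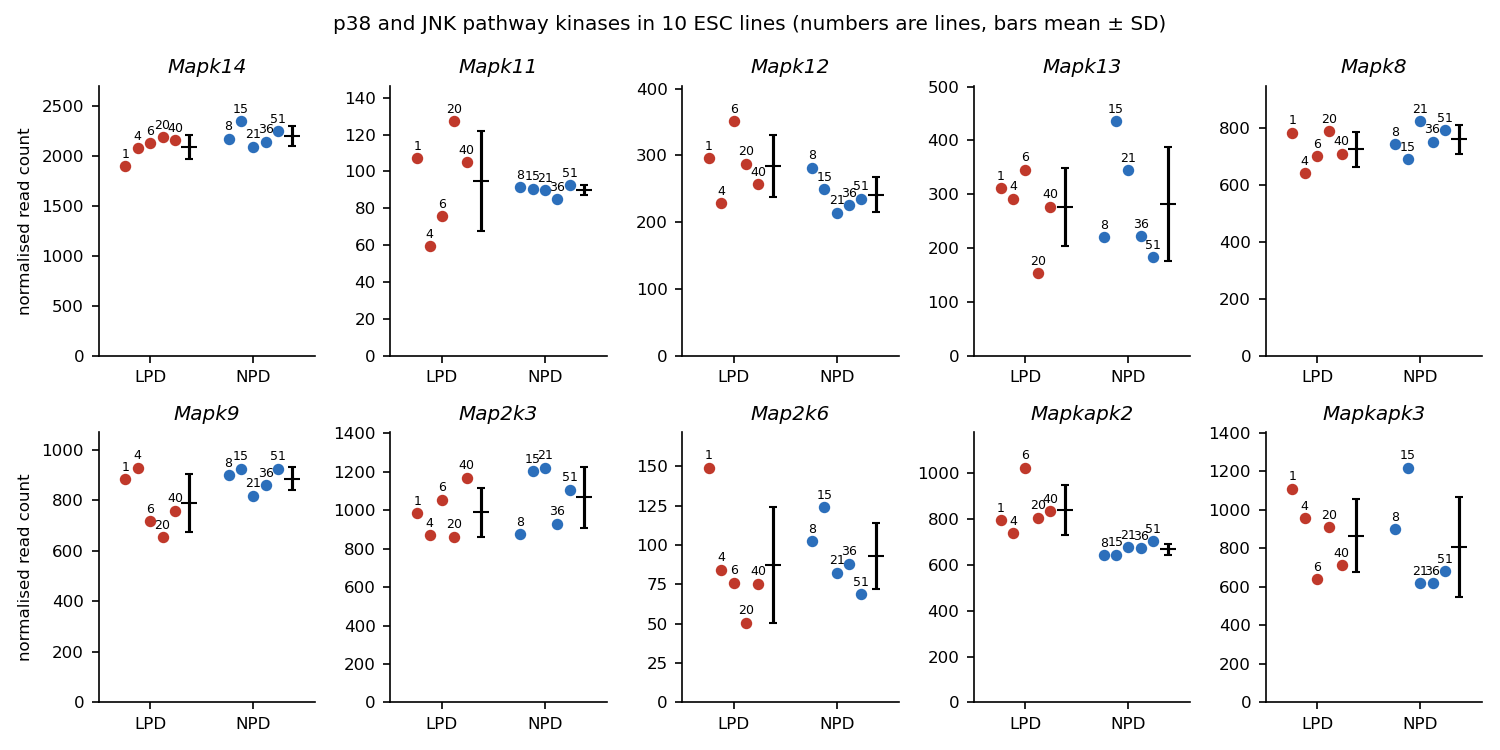
Normalised read count (y axis, from 0) of each of the 10 kinase genes in the 5 LPD lines (red) and 5 NPD lines (blue), with line numbers beside the points and the mean ± SD as black bars. The LPD points of Mapkapk2 lie between 739.6 and 1024 and the NPD points between 643.3 and 702.6, while the diets overlap in the other 9 panels.

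Mapk14 encodes p38-alpha, the p38 kinase found in most tissues. Its normalised read count was 1894, 2077, 2128, 2188 and 2157 in LPD lines 1, 4, 6, 20 and 40. It was 2173, 2347, 2093, 2141 and 2245 in NPD lines 8, 15, 21, 36 and 51. The groups overlapped, with LPD lines 1 and 4 below every NPD line and NPD lines 15 and 51 above every LPD line. The mean was 2089 ± 116 (SD, n = 5) against 2200 ± 98.9 (SD, n = 5), which gave -0.08 on the log2 scale with a 95% interval from -0.23 to 0.08 (exact permutation test, two-sided, p = 0.151). Mapk14 was the steadiest of the 10 genes. Its highest line was 1.24 times its lowest, and only 3.6% of the 500 genes nearest to it in level had a smaller spread within the diets.

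Mapk11 encodes p38-beta and had the lowest normalised read counts of the p38 genes. It had 107.0, 59.5, 75.9, 127.2 and 105.0 in LPD lines 1, 4, 6, 20 and 40, and 91.5, 90.7, 89.7, 85.0 and 92.4 in NPD lines 8, 15, 21, 36 and 51. The LPD lines lay on both sides of the NPD lines, 3 above and 2 below all of them, so the means hardly differed (94.9 ± 27.0 against 89.9 ± 2.88, SD, n = 5 each). On the log2 scale they differed by 0.03, with a 95% interval from -0.43 to 0.49 (exact permutation test, two-sided, p = 0.937). The coefficient of variation was 28.4% in LPD and 3.20% in NPD, where counting alone would give about 13.8% and 9.27%. In LPD line 4, the shallowest, the value rested on 21 read equivalents, a counting error of 22.0%.

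Mapk12, p38-gamma, had 295.8, 228.4, 351.1, 287.5 and 257.4 in LPD lines 1, 4, 6, 20 and 40. It had 281.9, 249.2, 214.2, 225.9 and 235.2 in NPD lines 8, 15, 21, 36 and 51. LPD lines 1, 6 and 20 were above every NPD line, while LPD lines 4 and 40 lay inside the NPD range. The log2 fold change of 0.23 (95% interval -0.08 to 0.53) was the largest after that of Mapkapk2 and did not pass the test (exact permutation test, two-sided, p = 0.0952). It stayed positive under all 22 alternatives, between 0.13 and 0.33.

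Mapk13, p38-delta, had the widest spread of the p38 genes in NPD, with a coefficient of variation of 37.5%. It had 310.7, 292.1, 345.5, 154.0 and 277.0 in LPD lines 1, 4, 6, 20 and 40. It had 220.5, 435.6, 344.9, 221.6 and 183.9 in NPD lines 8, 15, 21, 36 and 51. The groups overlapped over most of their range, with LPD line 20 the lowest and NPD line 15 the highest of the 10 lines. The means were 276 ± 72.8 against 281 ± 106 (SD, n = 5 each), or -0.00 on the log2 scale with a 95% interval from -0.58 to 0.57 (exact permutation test, two-sided, p = 0.984). Of the 500 genes nearest in level, 87.6% had a smaller spread within the diets. Its highest line was 2.83 times its lowest, where this ratio was 1.24 for its chromosomal neighbour Mapk14.

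Neither JNK gene passed the test between the diets. Mapk8, which encodes JNK1, had 783.8, 642.2, 701.3, 789.7 and 710.2 in LPD lines 1, 4, 6, 20 and 40, and 744.3, 690.8, 824.4, 752.5 and 793.5 in NPD lines 8, 15, 21, 36 and 51. LPD line 4 was the lowest, NPD lines 21 and 51 lay just above the LPD range, and the rest overlapped. Mapk8 gave a log2 fold change of -0.07 (95% interval -0.27 to 0.13, exact permutation test, two-sided, p = 0.349). Mapk9, which encodes JNK2, had 885.2, 929.9, 716.9, 655.5 and 759.3 in LPD lines 1, 4, 6, 20 and 40, and 899.4, 925.9, 819.1, 861.7 and 925.6 in NPD lines 8, 15, 21, 36 and 51. LPD lines 6, 20 and 40 were below every NPD line, but LPD line 4 was the highest of all 10. The log2 fold change of Mapk9 was -0.18 (95% interval -0.41 to 0.05, exact permutation test, two-sided, p = 0.127). The threshold call of Mapk9 rested on LPD line 4, since without that line the log2 fold change was -0.24 (limma, unadjusted p = 0.0419, adjusted p = 0.944). With read depth as a covariate it was -0.28 (limma, unadjusted p = 0.0496).

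Neither activator of p38 passed the test between the diets. Map2k3 had 983.8, 870.4, 1055, 862.7 and 1170 in LPD lines 1, 4, 6, 20 and 40, and 875.1, 1203, 1222, 930.0 and 1108 in NPD lines 8, 15, 21, 36 and 51. LPD lines 4 and 20 were below and NPD lines 15 and 21 above all lines of the other diet. Map2k3 differed by -0.11 on the log2 scale (95% interval -0.37 to 0.16, exact permutation test, two-sided, p = 0.397). Map2k6 had 149.2, 84.4, 76.1, 50.6 and 75.5 in LPD lines 1, 4, 6, 20 and 40, and 102.3, 124.2, 82.5, 88.1 and 68.7 in NPD lines 8, 15, 21, 36 and 51. Its LPD lines held both extremes, with line 1 above and line 20 below all other lines. Its log2 fold change was -0.16 with a wide interval from -0.74 to 0.43 (exact permutation test, two-sided, p = 0.603), and it turned to 0.01 without LPD line 20. The value of Map2k6 in LPD line 4 rested on 29 read equivalents.

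Mapkapk2 encodes MK2, the kinase through which p38 acts on AU-rich mRNAs. It had 793.4, 739.6, 1024, 805.6 and 835.0 in LPD lines 1, 4, 6, 20 and 40. It had 643.3, 645.1, 677.1, 673.2 and 702.6 in NPD lines 8, 15, 21, 36 and 51. LPD line 6 was the highest, LPD line 4 the lowest of its diet, and no LPD line reached down to the NPD range. Groups that do not overlap were found in 1 of the 10 kinase genes, and in 1.02% of all genes tested, of which 0.523% had every LPD line above every NPD line. The log2 fold change was 0.32 with a standard error of 0.10 (limma, unadjusted p = 0.00653, adjusted p = 0.681). The exact permutation test gave p = 0.00794 (two-sided), the smallest that 5 against 5 lines allow. Within NPD the coefficient of variation was 3.70%, close to the 3.40% that counting alone would give, and within LPD it was 12.9% against 4.25%.

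The difference in Mapkapk2 kept its direction and an unadjusted p under 0.05 in all 22 alternatives, with log2 fold changes from 0.25 to 0.40 and adjusted p from 0.550 to 1.00 (limma). The lowest value, 0.25, came without LPD line 6. Without LPD line 4 and NPD line 15, the lines with low Ddx3y, it was 0.35 (limma, unadjusted p = 0.00974). With read depth as a covariate it was 0.34 (limma, unadjusted p = 0.0194, adjusted p = 0.999), and after thinning every line to the shallowest depth it was 0.40. LPD line 6, with the most Mapkapk2, also had the most fibroblast marker signal among LPD lines (3344). NPD line 15 had the most of all 10 lines (5689) and 645.1 of Mapkapk2. The part of fibroblast RNA in the difference was not tested.

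Mapkapk3 encodes MK3, which shares substrates with MK2. It had 1109, 954.2, 641.0, 908.6 and 710.5 in LPD lines 1, 4, 6, 20 and 40. It had 899.9, 1218, 617.2, 618.2 and 680.5 in NPD lines 8, 15, 21, 36 and 51. The groups overlapped, and the line with the most Mapkapk2, LPD line 6, had the least Mapkapk3 of the LPD lines. Mapkapk3 differed by 0.12 on the log2 scale (95% interval -0.32 to 0.56, exact permutation test, two-sided, p = 0.603). Among the 500 genes nearest in level, 92.2% had a smaller spread within the diets, the largest such share of the 10 genes.

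**Figure D2:**
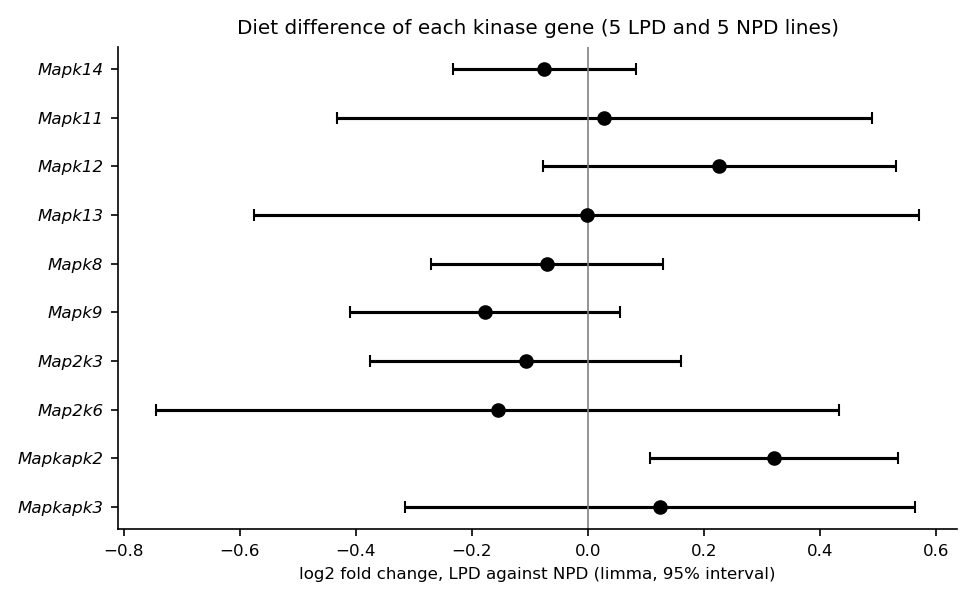
Log2 fold change of each kinase gene, LPD against NPD (x axis, limma on log2(value + 1)), with its 95% interval as a bar, for 5 LPD and 5 NPD lines. The interval of Mapkapk2 runs from 0.11 to 0.53 and is the only one that leaves out 0.

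Levels of different genes were compared per kilobase of transcript, as the normalised read count divided by the median length of the protein-coding transcripts. Mapk14 was the most abundant p38 gene in every line, with a level of 681 ± 37.3 per kb (SD, n = 10). Mapk13 had 237 ± 72.8, Mapk12 145 ± 23.1 and Mapk11 37.5 ± 7.43 per kb (SD, n = 10 each). Mapk14 therefore held 62.1% ± 4.50 (SD, n = 10) of the summed p38 level, from 56.1% in LPD line 1 to 68.8% in NPD line 51. Its share was 60.8% ± 4.55 in LPD and 63.4% ± 4.55 in NPD (SD, n = 5 each), a gap within the spread. By their means, Mapk13 stood above Mapk12 in this length definition and over the union of all exons, in the latter in 7 of 10 lines. With the median length, LPD line 20 had 12.6% for Mapk13 and 15.3% for Mapk12. The order of the means did not hold with the longest transcript, where Mapk12 had 16.6% and Mapk13 10.8%.

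Among the activators, Map2k3 held 91.5% ± 2.58 (SD, n = 10) of the summed level, at 468 ± 64.8 per kb against 43.4 ± 13.7 per kb for Map2k6. The lowest share of Map2k3 was 86.2% in LPD line 1 and the highest 94.2% in LPD line 20. Of the 10 genes, Map2k6 and Mapk11 had the lowest levels per kb under all 3 length definitions. They could not be ordered between themselves, since Map2k6 was the higher in 7 of 10 lines by transcript length and the lower in 7 of 10 by the union of exons.

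The balance of the JNK and MK genes depended on the length used. Mapk8 held 73.1% ± 3.05 (SD, n = 10) of the JNK level with the median transcript, 42.0% with the longest transcript and 34.6% with the union of exons, because its annotated transcripts run from short forms to 5756 bases. Mapkapk2 held 33.3% ± 6.90, 47.6% and 62.4% of the sum with Mapkapk3 in the same order. The order of lines does not depend on length. Across the lines, the share of Mapkapk2 was highest in LPD line 6 (46.1%) and lowest in NPD line 15 (22.1%), and it was 34.8% ± 7.57 in LPD against 31.8% ± 6.67 in NPD (SD, n = 5 each). Mapkapk2 was thus apart between the diets in its own level but not in its share. Mapkapk3 varied more between lines of the same diet, and its part in this was not tested.

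**Figure D3:**
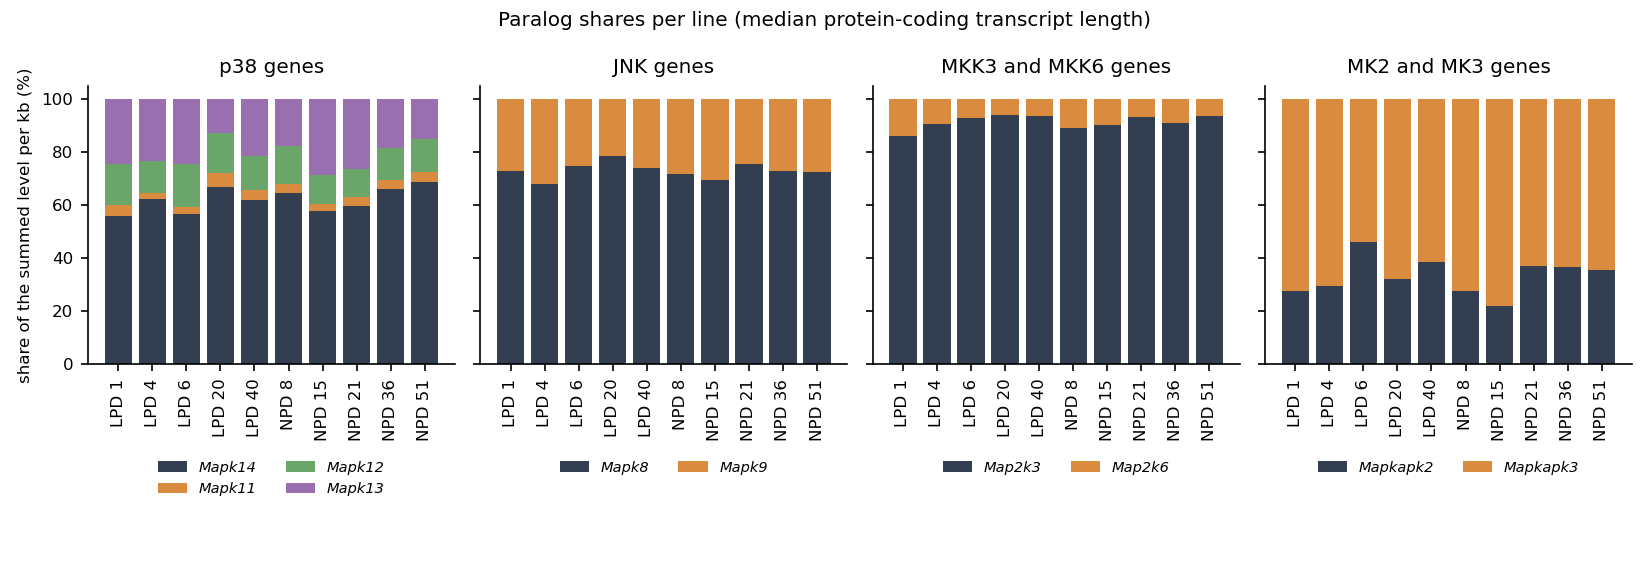
Share of each paralog (y axis, percent) in the summed level per kb of its set, by line (x axis, 5 LPD then 5 NPD lines), with the median protein-coding transcript length. Mapk14 holds 56.1% to 68.8% of the p38 level and Map2k3 86.2% to 94.2% of the activator level, while the share of Mapkapk2 runs from 22.1% to 46.1%.

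The 10 genes did not move as a block across lines. Of the 45 pairs, 23 correlated positively and 22 negatively over the 10 lines, 5 had an unadjusted permutation p under 0.05 by Pearson's r and 0 by Spearman's rho. After Benjamini-Hochberg adjustment over the 45 pairs 0 were under 0.1, the smallest being 0.441 (permutation test). The strongest was Mapk12 with Mapkapk2, with r = 0.72 (permutation test, p = 0.0160, n = 10) and rho = 0.53 (permutation test, p = 0.122, n = 10). It rested on LPD line 6 and NPD line 21, without which r was 0.35. Mapk9 ran against Mapkapk2, with r = -0.68 (permutation test, p = 0.0279, n = 10), rho = -0.60 (permutation test, p = 0.0725, n = 10) and r = -0.50 without LPD lines 6 and 20. The points of a correlation share their library and depth. Within the diets, as deviations from the diet means, 4 pairs had a permutation p under 0.05 and 0 passed adjustment. The permutations moved deviations across both diets and took no account of the fitted means, so these p are likely too small. The 4 pairs were Mapk11 with Mapk8 (r = 0.72, permutation p = 0.0157), Mapk9 with Map2k6 (r = 0.67, permutation p = 0.0350), Mapk13 with Map2k6 (r = 0.64, permutation p = 0.0430) and Mapkapk2 with Mapkapk3 (r = -0.64, permutation p = 0.0381). The last pair had r = -0.22 over all lines (permutation p = 0.553, n = 10), while the other 3 had 0.66, 0.65 and 0.63.

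**Figure D4:**
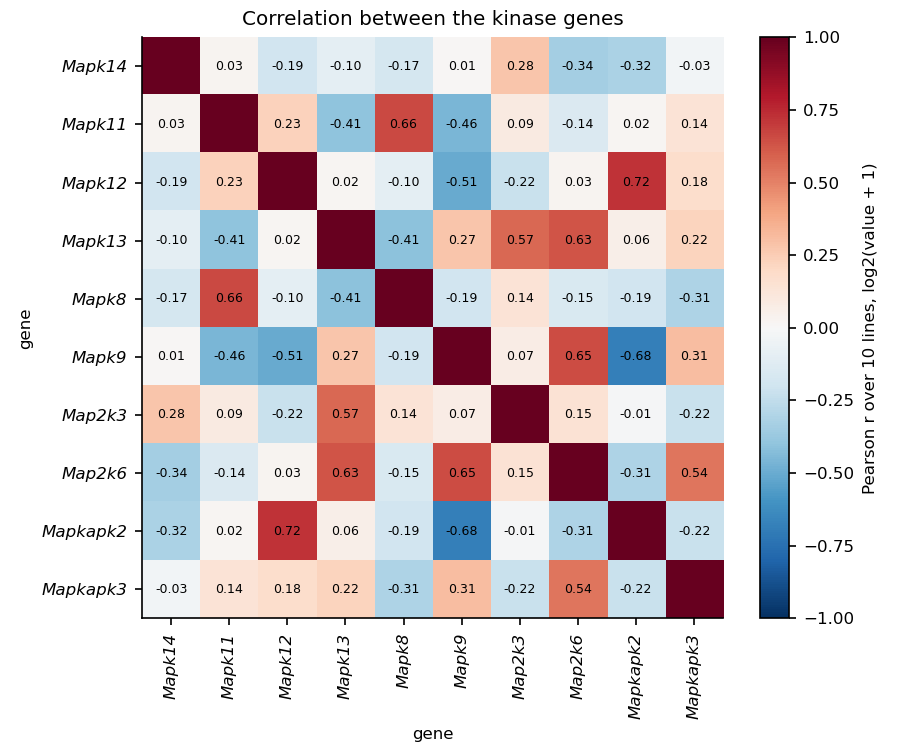
Pearson r of log2(value + 1) between the kinase genes over the 10 lines, printed in each cell and coloured from blue (-1) to red (1). Positive and negative cells are about equally many (23 and 22), the highest being Mapk12 with Mapkapk2 (0.72) and the lowest Mapk9 with Mapkapk2 (-0.68).

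The gene whose pattern over the 10 lines was most like each kinase gene, by Pearson's r of log2 values among 14353 others, was in no case another of the 10. It was Gprc5a for Mapkapk2 (r = 0.96), Vps13c for Mapkapk3 (r = 0.97) and Mdfic for Mapk13 (r = 0.97). For Mapk14 it was Peg12 (r = 0.92), for Mapk11 Nradd (r = 0.90) and for Mapk12 Gaa (r = 0.95). For Mapk8 it was Pnldc1 (r = 0.92), for Mapk9 Pnmal2 (r = 0.94) and for Map2k3 Cisd1 (r = 0.95). Each is the highest of many correlations over few lines and is given as a description.

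Around these kinases, 79 further genes of the pathway were listed in 8 groups by role, and 73 were tested. Of these, 12 were higher and 1 lower in LPD at an unadjusted p under 0.05, or 17.8% against 5.02% of all genes tested, and 0 passed an adjusted p of 0.1 (limma, Benjamini-Hochberg). The groups did not overlap in 5 of the 73, or 6.85%, against 1.02% of all genes. The median log2 fold change was 0.09. Phosphatases and transcription factors held 8 of the 13 calls. The list of phosphatases was drawn up with earlier results on Dusp8 known, and the list of transcription factors with results on Jund known.

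The remaining genes of the JNK branch gave 0 calls in 3. Mapk10, which encodes JNK3, the form best known from neurons, was low, with 7.78 to 30.2 in LPD lines and 6.35 to 51.2 in NPD lines, and its log2 fold change was -0.61 with a standard error of 0.53. The JNK activators Map2k4 (835 ± 43.5 in LPD, 836 ± 81.2 in NPD, SD, n = 5 each) and Map2k7 (1286 ± 199 in LPD, 1276 ± 58.2 in NPD, SD, n = 5 each) had log2 fold changes of 0.00 and -0.00, whose signs turned under other settings. Their 95% intervals were -0.20 to 0.20 and -0.24 to 0.24. The 7 scaffold proteins and the 5 other downstream kinases gave 0 calls as well.

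Of 24 MAP3 kinases and their partners, 2 were called higher and 1 lower, or 12.5% against 5.02% of all genes tested. Taok2, a MAP3 kinase that acts upstream of p38, had 1111, 1139, 1399, 1190 and 1263 in LPD lines 1, 4, 6, 20 and 40, and 1479, 1588, 1449, 1475 and 1552 in NPD lines 8, 15, 21, 36 and 51. Every LPD line was below every NPD line. Its log2 fold change was -0.31 with a standard error of 0.08 (limma, unadjusted p = 0.00273, adjusted p = 0.551). Gadd45b, a stress-induced protein that binds the MAP3 kinase MEKK4, had 814.1, 1008, 1248, 1365 and 1051 in LPD lines 1, 4, 6, 20 and 40, and 577.3, 622.8, 876.0, 515.4 and 795.9 in NPD lines 8, 15, 21, 36 and 51. LPD line 1 was inside the NPD range and the other 4 above it, and the log2 fold change was 0.70 (exact permutation test, two-sided, p = 0.0159). Its relative Gadd45a was at the threshold, with a log2 fold change of 0.21 (limma, unadjusted p = 0.0499), and was called in only 3 of 22 alternatives. It is named although it came after the 12 genes the naming rule allowed.

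Phosphatases that remove phosphate from p38 and JNK gave the largest share of calls, 5 of 9 or 55.6%, against 5.02% of all genes tested. As results on Dusp8 were known when the list was drawn up, this share is no independent support for a difference. All 9 had positive log2 fold changes, with a median of 0.69, and the same held under the other scalings of the lines. Dusp1 (MKP-1), an early stress-response phosphatase, had 2041, 2303, 1604, 1522 and 1136 in LPD lines 1, 4, 6, 20 and 40, and 1123, 858.6, 1166, 656.9 and 1042 in NPD lines 8, 15, 21, 36 and 51. LPD line 40 alone lay inside the NPD range. Its log2 fold change was 0.82 (exact permutation test, two-sided, p = 0.0159). Dusp16 (MKP-7), which acts mainly on JNK, had 763.3, 903.2, 1103, 1336 and 775.1 in LPD lines 1, 4, 6, 20 and 40, and 746.0, 526.5, 565.3, 483.9 and 673.9 in NPD lines 8, 15, 21, 36 and 51. The diets did not overlap, though LPD line 1 came close to NPD line 8, and the log2 fold change was 0.69 (exact permutation test, two-sided, p = 0.00794).

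Dusp4, which acts mainly on ERK and JNK, was also apart between the diets, with a log2 fold change of 0.72 (exact permutation test, two-sided, p = 0.00794). Its lowest LPD value was 761.4 and its highest NPD value 761.0, and LPD line 20 stood far above the rest at 1868. Without LPD line 20 it was 0.48 (limma, unadjusted p = 0.0480), and without NPD line 15 it was 0.53 and lost its call (limma, unadjusted p = 0.0556). Dusp10 (MKP-5), selective for p38 and JNK, had 65.3, 81.8, 84.8, 48.0 and 33.5 in LPD lines 1, 4, 6, 20 and 40, and 26.1 to 39.4 in NPD lines. Only LPD line 40 overlapped, and the log2 fold change was 0.94 (exact permutation test, two-sided, p = 0.0159). Its call was lost after thinning, at 0.79 (limma, unadjusted p = 0.0740). Dusp8 had 359.0, 362.3, 235.9, 278.8 and 74.3 in LPD lines 1, 4, 6, 20 and 40, and 36.8 to 89.4 in NPD lines. Its log2 fold change was 1.94 (exact permutation test, two-sided, p = 0.0238), while line 40 of LPD again lay inside the NPD range. The phosphatases of the PP2C type, Ppm1a, Ppm1b and Ppm1d, had log2 fold changes from 0.09 to 0.13 and were not called.

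Transcription factor substrates gave 3 calls in 12, all members of the Jun family of AP-1, against 5.02% of all genes tested. As results on Jund were known when the list was drawn up, this count is no independent support for a difference. Jun had 3589, 3226, 899.4, 655.7 and 381.3 in LPD lines 1, 4, 6, 20 and 40, and 503.4, 518.3, 274.4, 284.6 and 340.3 in NPD lines 8, 15, 21, 36 and 51. LPD lines 1 and 4 were far above the rest, LPD lines 6 and 20 lay between them and the NPD lines, and LPD line 40 was inside the NPD range. Jun differed by 1.71 on the log2 scale, with a standard error of 0.54 (exact permutation test, two-sided, p = 0.0317). Junb was likewise highest in LPD lines 1 and 4, with 2389, 2584, 985.5, 715.5 and 303.6 in LPD lines 1, 4, 6, 20 and 40 and 292.8 to 544.3 in NPD lines. It differed by 1.39 on the log2 scale (limma, unadjusted p = 0.0127). Junb did not pass the exact tests, with p = 0.0556 (permutation test, two-sided) and p = 0.0952 (Mann-Whitney test, two-sided). Its limma call was lost in 2 of 22 alternatives. These were the fit without both LPD line 4 and NPD line 15 (1.08, limma, unadjusted p = 0.0513) and that with depth as a covariate (1.21, limma, unadjusted p = 0.0682). Jund was even across lines, from 2735 to 3046 in LPD and from 1873 to 2362 in NPD, with a log2 fold change of 0.46 (exact permutation test, two-sided, p = 0.00794). Another gene of the series had the same values as Jund in every line, and which of them the reads came from was not tested.

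On the side of MK2, 1 of 8 substrates and 1 of 5 AU-rich transcripts were called, against 5.02% of all genes tested. In lists this short, 1 call cannot be told apart from that share. Zfp36 encodes tristetraprolin, the AU-rich binding protein that MK2 phosphorylates. It had 1117, 1476, 586.7, 548.0 and 398.0 in LPD lines 1, 4, 6, 20 and 40, and 319.9 to 493.6 in NPD lines, with LPD line 40 inside the NPD range. Its log2 fold change was 0.95 (exact permutation test, two-sided, p = 0.0238), and 0.71 with depth as a covariate, where its call was lost (limma, unadjusted p = 0.0775). Plaur, the urokinase receptor, whose mRNA carries AU-rich elements, had 695.8, 671.7, 2721, 2380 and 858.1 in LPD lines 1, 4, 6, 20 and 40, and 315.4 to 578.2 in NPD lines. The diets did not overlap, and the log2 fold change was 1.49 (exact permutation test, two-sided, p = 0.00794). The line with the most Mapkapk2, LPD line 6, also had the most Plaur, but the other lines did not follow this order. LPD line 20 had 2380 of Plaur with 805.6 of Mapkapk2, and LPD line 40 had 858.1 with 835.0. A link between the 2 genes was not tested. The highest LPD lines thus differed between genes, lines 1 and 4 for Jun, Junb, Zfp36, Dusp1 and Dusp8 and lines 6 and 20 for Plaur, Gadd45b and Dusp16. LPD line 40 had the lowest LPD value in 7 of the 12 genes called higher. Each line was left out in turn, and 40 genes of the whole table passed an adjusted p of 0.1 without LPD line 40 (limma, Benjamini-Hochberg). Among them were Dusp8, Jund, Dusp1 and Junb, with log2 fold changes of 2.34, 0.48, 0.96 and 1.84. Since that line has the lowest LPD value of all 4, these calls are no independent support for the difference.

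**Figure D5:**
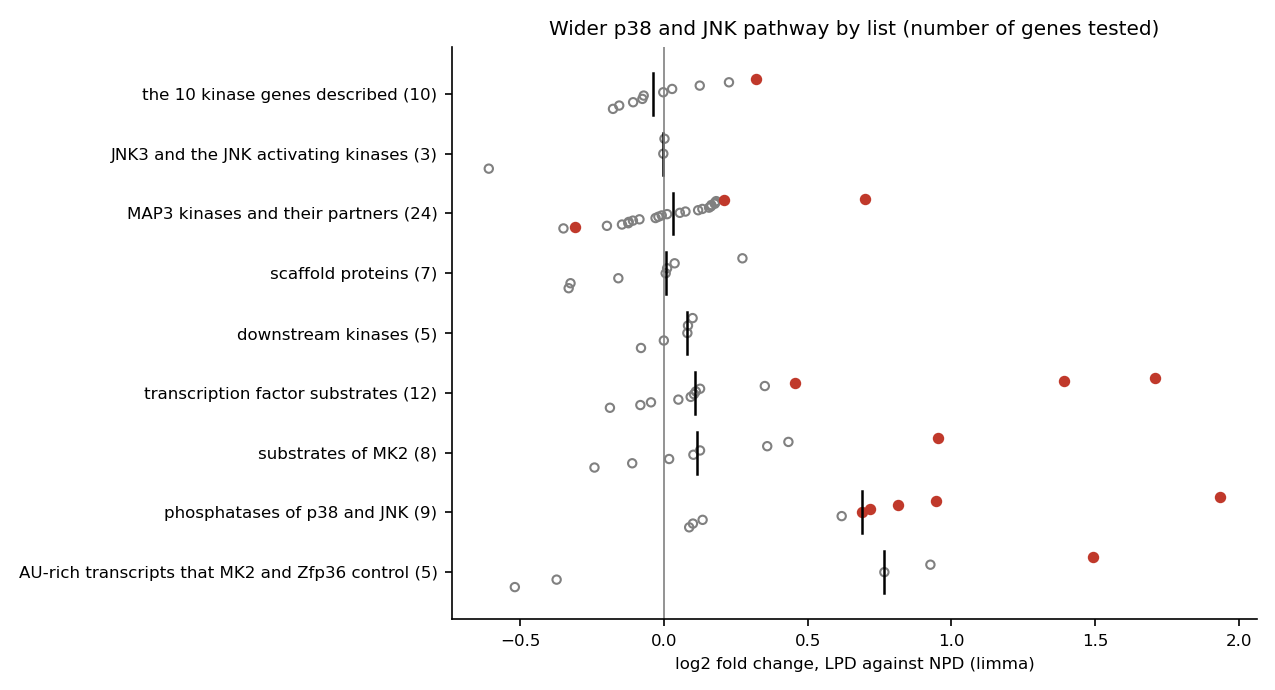
Log2 fold change, LPD against NPD (x axis, limma), of the 10 kinase genes and of the 73 tested genes of the wider pathway, by list (y axis, number of genes tested in brackets). Filled red points have an unadjusted p under 0.05, open points do not, and black lines are medians, which reach 0.69 for the phosphatases and -0.04 for the 10 kinase genes.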

How the data were processed

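RNA sequencing of 10 mouse ESC lines, 5 LPD and 5 NPD, was used, with each line as 1 replicate and 0 columns without a mapped line. Per the labels and the study's methods, the authors used cutadapt, Salmon on GRCm38 transcripts and sleuth 0.30.0 for transcript tests. The signal deposited by the authors is 1 normalised read count per gene and line, an estimated count that, by the name of the table, the authors normalised with DESeq2. The step from transcripts to genes is not given in the sources used here. It is not a whole number, and the study's Sleuth test of transcripts could not be repeated on it.

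The value of 1 read was estimated from low values of genes with 1 annotated transcript, of which at least 91.7% per line were whole multiples within a tolerance of 0.15, and depth is the total of a line divided by it. Over all genes 67.7% to 74.1% were whole, so reads were not recovered and no count model was run. Totals ran from 16398672 to 18324979 in value. Counting errors cover counting only, since reads had no molecular identifiers.

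Each value was transformed to log2(value + 1). Genes averaging at least 10 (14354) entered limma 3.58.1 (R 4.3.3, trend, no covariate), with Benjamini-Hochberg adjustment over all of them. A log2 fold change compares LPD with NPD after this transformation, so changes of low genes are understated. Exact permutation of the lines between diets was run for single genes, and correlations with 100000 permutations. The limma step was tested on simulated data. Genes were matched to GENCODE M21 (19891 of 20206), which gave positions, lengths and coding sequence on GRCm38. Other steps ran in Python 3.11.15 (scipy 1.17.1, pandas 2.3.3, numpy 2.4.6), and figures were drawn with matplotlib 3.10.9.

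The genes and gene lists were chosen with earlier results of these data known. Named were the 10 kinase genes, Mapk10, Map2k4 and Map2k7, up to 12 genes of the wider lists with the smallest unadjusted p under 0.05, the gene most like each kinase gene (that of Map2k6 is not reported here), and Ddx3y and markers as checks. Markers of primitive endoderm (7 genes) summed to 644.8 to 4312 in LPD lines and 448.4 to 4941 in NPD lines, and those of trophectoderm (6 genes) to 1859 to 3464 and 1959 to 4341. Alternatives were pseudocounts of 0.5 and 10, no filter or a minimum mean of 100, quantile normalization, rescaling to equal totals, array weights, robust eBayes, no trend in limma, depth as a covariate, thinning, LPD line 4 and NPD line 15 left out together, each line left out in turn, an exact Mann-Whitney test, 2 other length definitions, and deviations from the diet means.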

Additional observations from a re-analysis of the deposited data

Results flagged for a closer look

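Each diet's 5 values were examined for a line far from the others, by the gap to the nearest line over the whole range, which picks out about 1 group in 20 by chance. It marked 4 of 64 groups. Mapk13 had 154.0 in LPD line 20 and 277.0 to 345.5 in the remaining LPD lines. The share of Mapk13 in the p38 level was 12.6% in that line against 21.3% to 24.6% in the others. Dusp8 had 74.3 in LPD line 40 and 235.9 to 362.3 in the rest of its diet. Dusp4 reached 1868 in LPD line 20, above values of 761.4 to 900.5.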

How the results depend on the processing

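The depth of the lines limits the low genes most, since a value of Mapk11 or Map2k6 in LPD line 4 rests on 21 or 29 read equivalents. Mapk14, Mapk12, Mapk9, Map2k3, Mapkapk2 and Mapkapk3 kept their direction in all 22 alternatives. The cause of each change given here was not tested, except that levels per kb follow from the length used. No paired analysis was possible because the line numbers are not shared between the diets.

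With lines rescaled to the same total, the log2 fold changes of Mapk11 and Map2k4 turned to -0.0058 and -0.033, and the calls over all genes went from 408 higher and 313 lower to 295 and 439. With quantile normalization Mapk13 turned to 0.0020 and Map2k4 to -0.018, with 396 calls higher and 379 lower. With array weights Mapk11 turned to -0.0040, Mapk13 to 0.12 and Map2k6 to 0.015, and 1 gene of the table passed an adjusted p of 0.1. With depth as a covariate Mapk8 turned to 0.034, Mapk11 went from 0.03 to 0.35 (limma, unadjusted p = 0.113), 1 of the 10 kinase genes (Mapk9) was called lower, and 2 wider genes were called lower. Without both LPD line 4 and NPD line 15 Mapk13 turned to 0.14 and 2 wider genes were called lower. After thinning, Mapk13 turned to 0.020, Map2k6 to 0.027 and Map2k7 to 0.055.

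Leaving out each line in turn gave log2 fold changes from -0.089 to 0.18 for Mapk11, -0.14 to 0.19 for Mapk13, -0.37 to 0.015 for Map2k6, -0.054 to 0.046 for Map2k4 and -0.053 to 0.090 for Map2k7. It gave 0 to 40 genes of the table at an adjusted p under 0.1 (40 without LPD line 40, and 1 each without LPD lines 1 and 20 and NPD line 8). Of the kinase genes 0 to 1 were called lower, 1 without LPD line 4. Of the wider genes 1 to 3 were called lower, with 3 without LPD line 1 and 2 without LPD lines 4 and 6, and 0 to 4 passed an adjusted p of 0.1, with 4 without LPD line 40.

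With the longest transcript, levels per kb were 597 for Mapk14, 94.9 for Mapk13, 129 for Mapk8, 264 for Mapkapk2 and 297 for Mapkapk3. Shares were then 68.3% for Mapk14, 4.30% for Mapk11, 16.6% for Mapk12, 10.8% for Mapk13, 42.0% for Mapk8 and 47.6% for Mapkapk2. With the union of exons, levels per kb were 490.1 for Mapk14, 69.0 for Mapk12, 88.4 for Mapk13, 64.9 for Mapk8, 124 for Mapk9, 310.2 for Map2k3, 26.2 for Map2k6, 248 for Mapkapk2 and 151 for Mapkapk3. Shares were then 72.2% for Mapk14, 4.72% for Mapk11, 10.2% for Mapk12, 12.9% for Mapk13, 34.6% for Mapk8 and 62.4% for Mapkapk2.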
